A study of Homo sapiens with 26 samples.

Results

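Ribosome footprints of Huh7 cells were compared between 60 min of PF-06446846 at 1.5 μM and 60 min of vehicle, in the second of 2 ribosome profiling studies. Huh7 cells derive from a human liver tumour (hepatocellular carcinoma), and the labels give both groups as this line, with no genetic change named. The 4 ribo-seq libraries were taken by their labels from the 26 libraries of the series: replicates 4 and 5 of 1.5 μM and replicates 4 and 5 of vehicle. The second study's 4 mRNA-seq libraries and the 6 ribo-seq libraries of the first study at the same dose and time (3 per group) served for comparison only. The design text calls replicates biological. According to the study, each sample of its second experiment gave a ribo-seq and an mRNA-seq library, so same-numbered libraries of both assays may share a culture. Whether treated and vehicle libraries with the same number shared a batch of cells or a day is not given in the sources used here.

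In ribo-seq, the stretches of mRNA covered by ribosomes are sequenced, so each read (a footprint) places a ribosome on a codon of a coding sequence (CDS). A ribosome that pauses adds footprints where it stands, and footprints beyond that codon become fewer where ribosomes do not go on past it. The growing protein leaves the ribosome through an exit tunnel, and PF-06446846 is a small molecule that binds the human ribosome. The comparison asked on which transcripts footprints changed with the compound, in number and in position.

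Footprints over the CDS numbered 12188311 and 13527071 in the libraries at 1.5 μM and 13736874 and 8888459 in the vehicle libraries, over 12325 transcripts. The study kept 1 isoform per gene, but 242 of the transcripts share a gene name with another, none of them among the genes called after the Dmax codon below. Replicates differed by more than counting noise (chi-square per transcript 6.82 and 4.46), so no library was taken for a copy of another, which does not show that they came from separate cultures. The median log2 fold change of all 11263 transcripts tested was 0.001. AFP, a fetal liver protein that hepatoma lines secrete, had 9409 and 10010 CPM (normalized reads per 1000000 counted) at 1.5 μM and 9898 and 10140 in vehicle. Of 15 markers of other liver cells, 6 were among the transcripts. STAB2 (sinusoidal endothelium) had no read, CD68 (macrophages) and PECAM1 (endothelium) lay between 17.1 and 39.4 CPM, and KRT19 (bile duct epithelium) lay between 90.0 and 144 CPM. ACTA2 (stellate cells and muscle), whose CDS is close to those of other actins, had 352 to 393.5 CPM, and LYZ (lysozyme, of macrophages) had 367 to 496.

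The codons at which footprints rose are shown first. Most of the account concerns 21 genes that the study listed for stalls in its first experiment (the stall list). For each, the codon was found in the 6 libraries of the first study, as that whose share of the footprints rose most over vehicle, so that the 4 libraries described here had no part in choosing it. It is not always the main stall codon that the study lists. In MDK, MST1, PCBP1, PODXL2, PLA2G15, USO1 and SUMF1 it lies upstream of the listed codon. The sequences below cover 7 codons before the chosen codon, the chosen codon itself in capitals (the P-site codon, where the growing chain is held) and 2 codons after it. They are shown for 12 of the genes described most fully below, a choice made after their values were seen.
HSD17B11: ctgcttctcccgttactgatcGTCtgctcc
PODXL2: ctgctttcgccgctgctgcttCTGctggtt
PLA2G15: ttcctcttgctgctgctaatgCTGctcgcg
EMC7: cccgtcctgctgctgctgctgCTAtcgggg
PCBP1: actctcaccattcggcttcttATGcacgga
PCBP2: actctcaccatccggctacttATGcatgga
BCAP31: tttgttgtgttgcttctctgcATTcccttc
RPL27: ggacgctactccggacgcaaaGCTgtcatc
MDK: cagcaccgaggcttcctcctcCTCaccctc
LTBP3: ctgctgctgctgctgctgctgCTGggcctg
CDH1: attctgattctgctgctcttgCTGtttctt
IFI30: ccaacatggctgttggtcatgGAGatcctc

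All of these windows are coding exon sequence of GRCh38 (GENCODE 44). The window of HSD17B11 lies on the minus strand in exon 1 of 7 at chr4:87391017-87391046. That of PODXL2 is on the plus strand in exon 1 of 8 at chr3:127629256-127629285, and that of PLA2G15 is on the plus strand in exon 1 of 6 at chr16:68245481-68245510. EMC7 has its window on the minus strand in exon 1 of 5 at chr15:34101783-34101812. The windows of the paralogs PCBP1 and PCBP2 fall at the same codon 20, at chr2:70087780-70087809 in the single exon of PCBP1 and at chr12:53454837-53454866 in exon 2 of 14 of PCBP2, both on the plus strand. Those of BCAP31 (minus strand, exon 2 of 8, chrX:153723167-153723196), RPL27 (plus strand, exon 2 of 5, chr17:42998796-42998825) and MDK (plus strand, exon 2 of 5, chr11:46382061-46382090) are near the start of the protein too. LTBP3 is on the minus strand in exon 1 of 28 at chr11:65557849-65557878. In CDH1 the window is split over 2 exons between chr16:68823626 and chr16:68828202 on the plus strand, with the P-site codon in exon 14 of 16. IFI30 is on the plus strand in exon 2 of 7 at chr19:18175160-18175189.

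The letters CTGCTG (2 leucine codons when in frame) occurred on the coding strand in 8 of 19 stall list windows (42.1%). They occurred in 227 of 8117 windows placed by the same rule on all transcripts (2.80%), and in 53 of the 1055 of those whose codon was at most 50 (5.02%). The reverse complement CAGCAG was in 0 of the 19 windows, in 2.27% of all and in 1.14% of those up to codon 50. CTG stood in the P site in 6 of 19 windows (31.6%), against 3.33% of all windows and 5.59% of those up to codon 50. PODXL2, PLA2G15 and SUMF1 are among these 6, and their windows lie upstream of the main stall codon that the study lists. The counts therefore describe the chosen codons and not always the listed stall sites. Copies of the motif that overlap in a run, as in LTBP3, were counted as 1 window. The motif count was not a planned test and no p was computed. The other windows were matched for codon position at most, not for leucine content. The study concluded that no simple motif of the protein sequence predicts stalling, and that most hydrophobic stretches were unaffected.

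At the codon taken from the first study, footprints rose at 1.5 μM on most stall list genes. The density at a codon was expressed as a multiple of the mean density over the CDS (× CDS mean). Of the 20 stall list genes with enough reads, 18 had both libraries at 1.5 μM above both vehicle libraries, whereas 14.2% of the 9278 transcripts described did. The median rise over the 20 genes was 9.55 × CDS mean, against 0 for all transcripts. With 2 libraries per group, an exact permutation test of 1 gene cannot give a p below 0.33, so no p is given for single codons. In the mRNA-seq libraries the median difference at the same codons was −0.0688 × CDS mean.

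**Figure D1:**
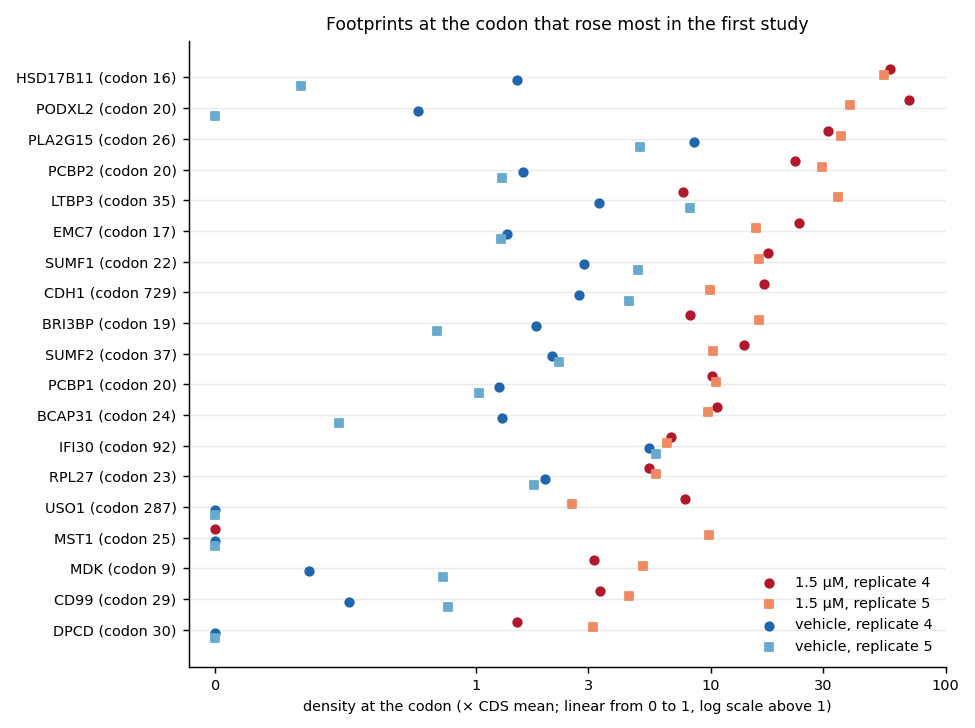
Footprint density at the codon that rose most in the first study (x axis, × CDS mean, linear from 0 to 1 and logarithmic above 1) for 19 stall list genes (y axis), with 1 point per library of the second study. The 1.5 μM points (red, orange) lie to the right of the vehicle points (blue) in 17 rows, and overlap them in LTBP3 and MST1.

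HSD17B11, a steroid dehydrogenase of the endoplasmic reticulum (ER) and lipid droplets, had densities of 58.0 and 54.7 × CDS mean at codon 16 at 1.5 μM and 1.49 and 0.330 in vehicle. Those peaks held 95 and 123 reads, or 19.3% and 18.2% of all footprints on its CDS. A second peak lay at codon 5, with 19.5 and 22.7 × CDS mean against 0.747 and 2.97. Both libraries at 1.5 μM therefore held both peaks, and neither vehicle library did.

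PODXL2 (endoglycan, a cell surface sialomucin) reached 70.1 and 39.2 × CDS mean at codon 20, where the vehicle libraries had 0.778 and 0. It had a lesser peak at codon 31, with 23.7 and 19.6 against 0.778 and 1.12. EMC7, a subunit of the complex that inserts membrane proteins into the ER, had 23.8 and 15.6 at codon 17 against 1.35 and 1.28 in vehicle. A second, broader rise in EMC7 included codon 29, with 9.12 and 7.23 against 2.25 and 3.83. The groups did not overlap at any of these 4 codons.

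PCBP1 and PCBP2 are RNA-binding proteins that recognise runs of C, and their genes are close paralogs. Density at codon 20 of PCBP1 was 10.1 and 10.5 × CDS mean at 1.5 μM against 1.25 and 1.02, and at codon 20 of PCBP2 it was 22.8 and 29.7 against 1.59 and 1.29. A read with up to 5 best alignments was counted at each of them, so reads of identical stretches are shared between the pair and their values are not fully separate. BCAP31, an ER membrane protein that helps sort other membrane proteins, had 10.6 and 9.75 at codon 24 against 1.28 and 0.475.

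RPL27, a protein of the large ribosomal subunit, had no single codon that dominated. At codon 23 its density was 5.46 and 5.87 × CDS mean against 1.96 and 1.77 in vehicle. Within the libraries of the second study it was higher at codon 14 (16.1 and 12.4 against 0.576 and 0.610) and at codon 26 (11.04 and 9.88 against 1.29 and 1.13). The groups did not overlap at any of the 3 codons.

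CDH1 (E-cadherin, the adhesion protein of epithelial cells) differed from the other genes in place, with its peak at codon 729 of 883. The densities there were 16.9 and 9.92 × CDS mean at 1.5 μM against 2.75 and 4.46 in vehicle. A further rise lay at codon 716, with 10.5 and 8.26 against 3.58 and 3.12. The codons of the 20 genes ran from 9 to 729 with a median of 24.5, and 16 of them were between codons 10 and 50.

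Exceptions were seen, some of them among genes with few reads. LTBP3, a secreted binding protein of latent TGF-β, had 7.58 and 34.8 × CDS mean at codon 35 against 3.34 and 8.15, so the groups overlapped. MST1, a plasma growth factor of liver, had 0 and 9.81 at codon 25 against 0 and 0, where the single peak was 3 reads. IFI30, a lysosomal thiol reductase, did not overlap but differed least, with 6.78 and 6.52 at codon 92 against 5.43 and 5.84.

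The position of the largest rise was also searched in the 4 libraries of the second study alone. It was the same codon as in the first study for 8 of the 20 genes and within 1 codon for 10, against 4.27% of all transcripts within 1 codon. Genes with the same codon were HSD17B11, PCBP1, PCBP2, BCAP31, PODXL2, PLA2G15, EMC7 and CDH1. In 17 of the 20 genes the rise was less high than in the first study, where the median rise was 16.5 × CDS mean. The codon was chosen for its rise in the first study, so that study's values carry the choice. The count therefore does not show weaker stalling in the second study. The 2 studies were not compared by a test at this level.

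Peaks at the same codon in both studies occurred outside the stall list too. A total of 126 transcripts (1.36% of 9278) had a rise of at least 5 × CDS mean at the codon of the first study, with groups that did not overlap and the largest rise of the second study within 1 codon. Of these, 9 were on the list. Only 50 reads per library on the CDS were needed, so a high multiple can rest on few reads. Some of the 126 transcripts have identical values in every library, so the count is not one of separate genes. ZNF865, named after its value was seen, had the largest rise, at codon 100, with 81.5 and 94.5 × CDS mean at 1.5 μM against 27.4 and 34.2 in vehicle, so its codon was dense in vehicle as well.

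**Figure D2:**
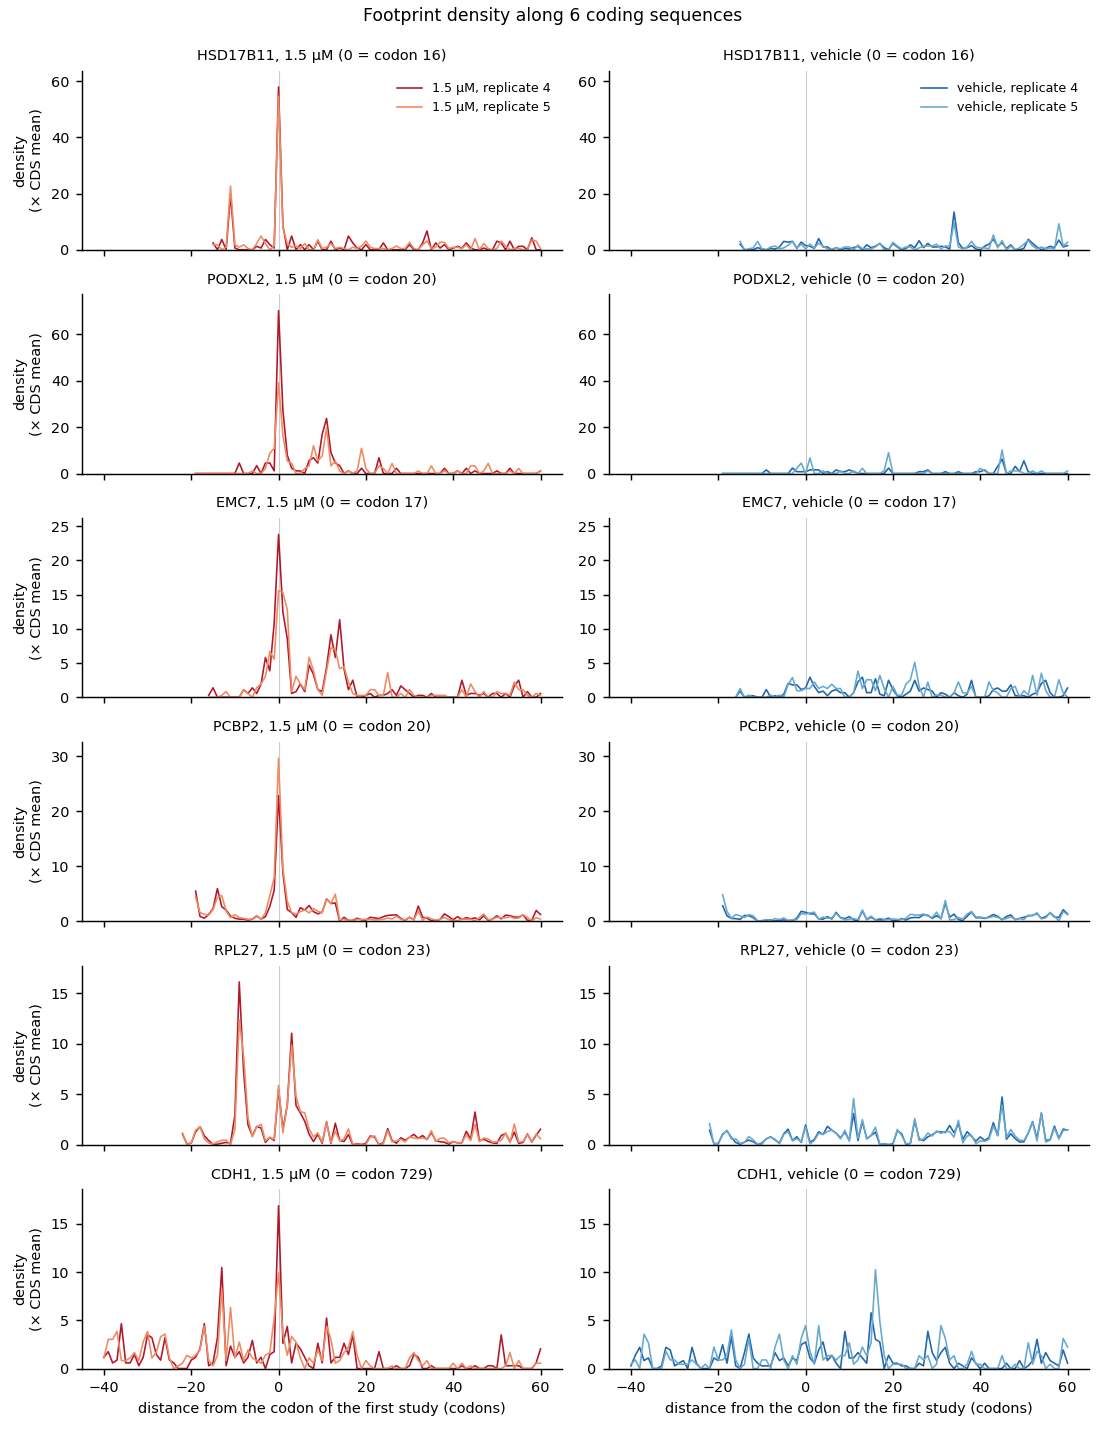
Footprint density (y axis, × CDS mean) along the codons around the codon taken from the first study (x axis, distance in codons, which is 0 at that codon) for 6 genes, with 1.5 μM libraries at left and vehicle libraries at right, on the same scale within a gene. Both 1.5 μM libraries peak at 0 in HSD17B11, PODXL2, EMC7, PCBP2 and CDH1 (58.0 and 54.7 in HSD17B11), and RPL27 peaks on both sides of it.

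A ribosome covers about as many codons as separate the codon from a window 8 to 12 codons upstream of it. In that window the median density over 19 genes was 2.66 and 1.13 × CDS mean at 1.5 μM and 0.281 and 0.355 in vehicle. Both libraries at 1.5 μM were above both vehicle libraries in 12 of the 19 genes, against 16.8% of all transcripts with such a window. In HSD17B11 the peak at codon 5 lies in this window. In a window from 5 to 54 codons after the codon, the median density over 20 genes was 1.28 in both libraries at 1.5 μM and 0.991 and 1.09 in vehicle. There the libraries at 1.5 μM were above both vehicle libraries in 12 of the 20 genes (16% of all transcripts) and below both in 7 (18%), among them RPL27, CDH1 and HSD17B11. These values are relative to the mean of the same CDS and library, so they show where on the CDS footprints lay and not their number. In MDK, MST1, PCBP1, PODXL2, PLA2G15, USO1 and SUMF1 the later window holds the main stall codon that the study lists. For these genes it is therefore not a measure of footprints beyond the stall. Their upstream window (MDK has none) lies further from the listed stall codon than 8 to 12 codons. In them it is not the place of a ribosome directly behind that stall.

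Position along the whole CDS was then measured by cumulative curves. For each transcript the share of footprints up to each codon was compared between the pooled 1.5 μM and the pooled vehicle libraries. Dmax is the largest difference of the curves, and its Z-score sets it against transcripts of like read number. Of 11405 transcripts, 271 had a Z-score of at least 2 (2.38%), and the median Dmax was 0.0442. Of the 21 stall list genes 20 were among the 271, with CCR1 (a chemokine receptor) below at 1.76. At the threshold, ZNF280B was just inside with a Dmax of 0.220 and a Z-score of 2.00, and CSKMT was just outside with a Dmax of 0.452 and a Z-score of 1.998. The first study gave 305 transcripts with a Z-score of at least 2, of which 61 were shared, 36 of them with Dmax codons at most 5 apart.

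Reads 3′ to the Dmax codon were fewer at 1.5 μM on 34 transcripts (edgeR quasi-likelihood test, Benjamini-Hochberg adjusted p under 0.1, Z-score of at least 2), which is 0.309% of the 10990 tested. For transcripts with a lower Z-score, reads after codon 50 entered the fit. The 34 included 20 of the 21 stall list genes and 14 others. In all 34, both libraries at 1.5 μM lay below both vehicle libraries, as did 16.1% of all transcripts tested. A call on these libraries makes that likely, so it adds no support to the calls. Because the Dmax codon was chosen on these same libraries, the fold changes and adjusted p-values carry that choice. With the codon and Z-score of the first study in its place, 28 transcripts were called (0.255%), 27 of them among the 34, and all 21 stall list genes were called. ARF1, CD47, CDO1, LYZ, NDUFB8, SORCS2 and TGFBI, all outside the stall list, were not called in that setting. Only CDO1 of these had a Z-score of at least 2 in the first study (3.28), so the others failed that threshold whatever the codon. Leaving out replicate 5 of 1.5 μM gave 62 calls in place of 34.

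**Figure D3:**
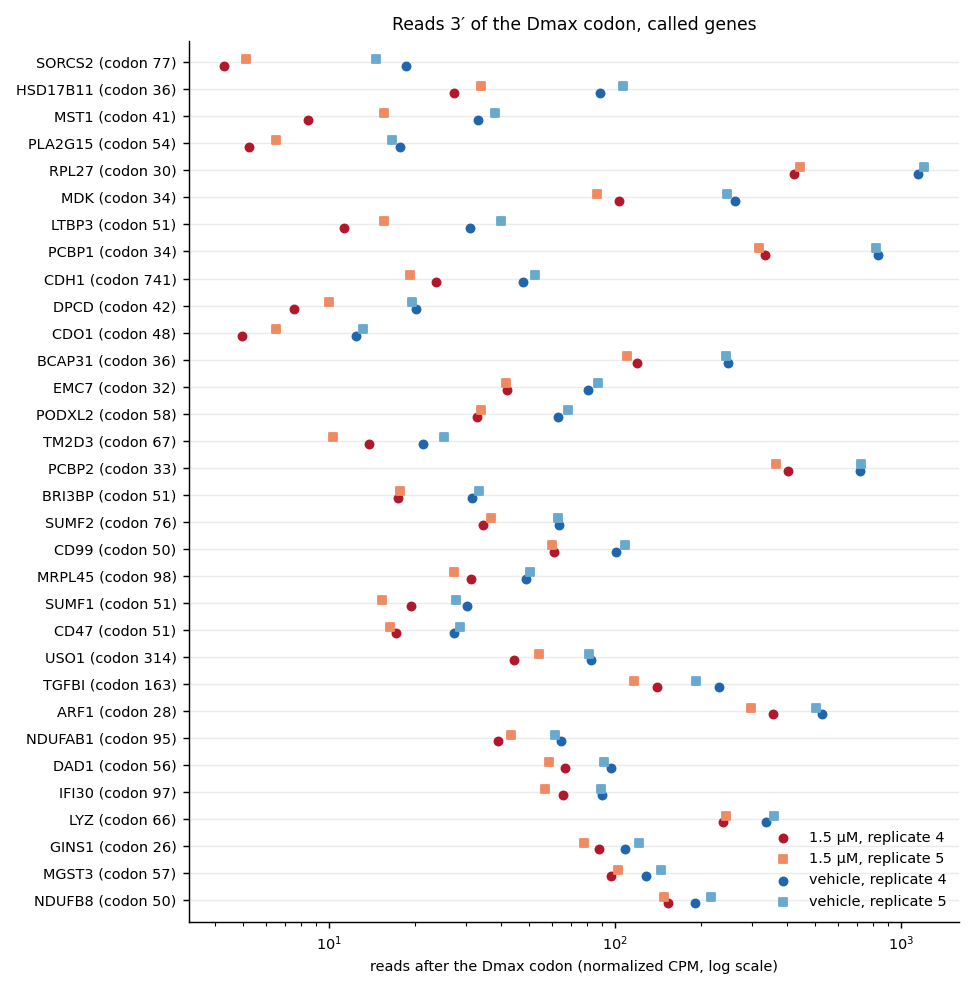
Reads 3′ to the Dmax codon (x axis, normalized CPM, log scale) for 32 called genes (y axis, with the Dmax codon), ordered by log2 fold change, with 1 point per library. In every row the 1.5 μM points (red, orange) lie left of the vehicle points (blue), from SORCS2 (28.4% of vehicle) to NDUFB8 (74.2%).

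The called genes are described by where their proteins act. These groups were formed after the values were seen and were not counted among all transcripts. They cover 32 of the 34, because 2 are not reported here, and their sizes describe those 32 only. RPL27 and PCBP1, which are among 8 genes of cytosolic or nuclear proteins, had the smallest p-values. RPL27 had 423 and 442 CPM after codon 30 at 1.5 μM (mean 432 ± 13.5, SD, n = 2) and 1144 and 1206 in vehicle (1175 ± 43.8). Its log2 fold change was −1.44 (SE 0.062, edgeR adjusted p = 1.03e-06), and 53.0% and 52.5% of its footprints lay up to that codon against 15.97% and 15.8% in vehicle. PCBP1 had 333 and 319 CPM after codon 34 against 831 and 819, a log2 fold change of −1.34 (edgeR adjusted p = 1.03e-06). PCBP2 had 403 and 364 against 721 and 724 after codon 33, a log2 fold change of −0.91. The libraries at 1.5 μM were the lower pair in each.

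The other 5 of these 8 genes changed less in size or had fewer reads. ARF1, a GTPase that recruits coats to Golgi membranes, had 357 and 299 CPM after codon 28 against 529 and 503 (−0.65 on the log2 scale). USO1, which tethers vesicles to the Golgi, had 44.2 and 54.1 after codon 314 against 82.5 and 80.9 (−0.73). CDO1, the cysteine dioxygenase of sulfur amino acid breakdown, fell by 1.14 on the log2 scale, DPCD by 1.18 and GINS1, a subunit of the replicative helicase, by 0.465. ARF1, CDO1 and GINS1 are outside the stall list, and CDO1, GINS1 and MGST3 are named here although they lie beyond the 30 smallest p-values, a choice made after their values were seen.

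Among the 32 were 5 genes of secreted or extracellular proteins. MDK (midkine, a heparin-binding growth factor) had 104 and 86.5 CPM after codon 34 against 262 and 247, a log2 fold change of −1.42 (edgeR adjusted p = 2.15e-05). Up to that codon lay 42.9% and 49.2% of its footprints against 13.7% and 13.4%. MST1 had 8.40 and 15.5 CPM after codon 41 against 33.2 and 37.9 (−1.55), and LTBP3 had 11.3 and 15.5 after codon 51 against 31.1 and 39.9 (−1.39). The matrix protein TGFBI fell by 0.724 on the log2 scale and lysozyme (LYZ) by 0.526, with 239 and 244 CPM against 337 and 358. LYZ, which macrophages also make, was the 1 gene of the other liver cell markers that was called.

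The 32 also held 11 genes of membrane proteins, and 2 lysosomal enzymes and 3 ER proteins are described with them. BCAP31 had 119 and 110 CPM after codon 36 against 248 and 244, a log2 fold change of −1.10 (edgeR adjusted p = 2.15e-05). EMC7 had 42.0 and 41.5 after codon 32 against 80.2 and 87.3 (−1.001). PODXL2 had 32.8 and 34.1 after codon 58 against 62.9 and 68.2 (−0.97). All 3 were on the stall list.

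CDH1 had 23.7 and 19.2 CPM after codon 741 against 47.6 and 52.6, a log2 fold change of −1.23 (SE 0.13, edgeR adjusted p = 0.00124). Only the last part of its CDS lies beyond that codon, and 91.8% and 93.1% of its footprints lay up to it against 82.4% and 80.0%. SORCS2, a neuronal sorting receptor, showed the largest change of the named genes, with 4.30 and 5.11 CPM after codon 77 against 18.5 and 14.6 (−1.82). Its Z-score of 2.11 was close to the threshold, and its Dmax codon in the first study was 619. The cell surface protein CD99 fell by 0.786 on the log2 scale and CD47, a surface signal that restrains phagocytes, by 0.736. DAD1, a subunit of the enzyme that attaches N-glycans, fell by 0.584, MGST3, a microsomal glutathione transferase, by 0.454, BRI3BP by 0.888 and TM2D3 by 0.939.

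HSD17B11 had 27.4 and 33.9 CPM after codon 36 against 88.8 and 107, the largest change of the ER proteins at −1.66 (edgeR adjusted p = 6.44e-05). SUMF1, which activates sulfatases in the ER, fell by 0.752 and its paralog SUMF2 by 0.829. Of the lysosomal enzymes, the phospholipase PLA2G15 had 5.25 and 6.50 CPM against 17.7 and 16.6 (−1.54) and IFI30 fell by 0.552. The 3 genes of mitochondrial proteins were MRPL45 of the mitochondrial ribosome (−0.76), and NDUFAB1 (−0.62) and NDUFB8 (−0.43) of respiratory complex I.

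The Dmax codon was at most 60 in 22 of the 34, between 61 and 120 in 9 and beyond 120 in 3, which were CDH1, USO1 and TGFBI. The reads left after it were between 28.4% and 74.2% of vehicle. Of the 34, 28 had a Dmax Z-score of at least 2 in the first study too, and in 20 the Dmax codons of the studies were at most 5 apart. The study required a first-study Z-score over 2 for its list, so the 20 called genes of the stall list had to reach it. Of the 14 outside the stall list, 8 reached it. Of the 32 described here, 21 stayed called whichever library was left out. The 11 that lost the call in at least 1 such fit were CD47, CDO1, DPCD, GINS1, LTBP3, MGST3, MRPL45, NDUFB8, SORCS2, SUMF1 and TM2D3.

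Some of the called genes outside the stall list also had a peak at the codon chosen in the first study. ARF1 had 17.4 and 17.7 × CDS mean at codon 25 against 4.48 and 6.75, and TGFBI had 11.9 and 15.4 at codon 32 against 1.62 and 0.386. NDUFAB1 had 14.3 and 12.2 at codon 91 against 5.55 and 4.85. NDUFB8 had 7.56 and 4.05 at codon 15 against 0.144 and 0.101, and GINS1 had 4.90 and 7.45 at codon 24 against 0 and 1.12. SORCS2 and CD47 had no footprint at that codon in any of the 4 libraries, and in MRPL45 and MGST3 the groups overlapped.

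Footprints summed over the whole CDS changed on fewer transcripts. edgeR called 12 lower (0.107% of 11263 tested) and 1 higher (0.00888%). PCBP1 had 377 and 374 CPM at 1.5 μM against 767 and 750 in vehicle, a log2 fold change of −1.01 (SE 0.060, edgeR adjusted p = 2.5e-05). BCAP31 had 137 and 135 against 238 and 236 (−0.80), and MDK had 155 and 146 against 262 and 243 (−0.75). RPL27 had 770 and 795 against 1175 and 1221, and its −0.62 over the whole CDS stood beside −1.44 after codon 30. The groups did not overlap in any of these genes.

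Also lower were HSD17B11 (−1.07), PCBP2 (−0.51), SORCS2 (−1.46), LTBP3 (−1.06), MST1 (−1.24) and PLA2G15 (−0.89). PLOD3, an ER enzyme that modifies collagen lysines, had 285 and 257 CPM against 406 and 370 (−0.52, edgeR adjusted p = 0.0207). Its Dmax Z-score was 1.71, so it was not among the 34, although reads after codon 50 were lower too (edgeR adjusted p = 0.0031). H2AC25, a core histone, was the higher gene with 359 and 380 CPM against 273 and 264 (0.46, edgeR adjusted p = 0.0185). Histone genes share long identical stretches, so reads of H2AC25 may come from other H2A genes. Of these 12 named genes, 8 stayed called whichever library was left out, and H2AC25, PLA2G15, PLOD3 and SORCS2 did not.

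Of the 21 stall list genes, 9 were called lower over the whole CDS, and 20 had both libraries at 1.5 μM below both vehicle libraries, against 15.1% of all tested. The same 20 were below 0, as were 49.6% of all transcripts, and the median log2 fold change of the list was −0.52. CDH1 was the exception, with 248 and 237 CPM at 1.5 μM against 233 and 224 in vehicle. In CD99 and EMC7, both called after the Dmax codon, the log2 values over the whole CDS were −0.09 and −0.27 and did not pass. The count over all transcripts rested on single libraries: it was 31 without replicate 4 of 1.5 μM and 129 without replicate 5 of 1.5 μM.

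**Figure D4:**
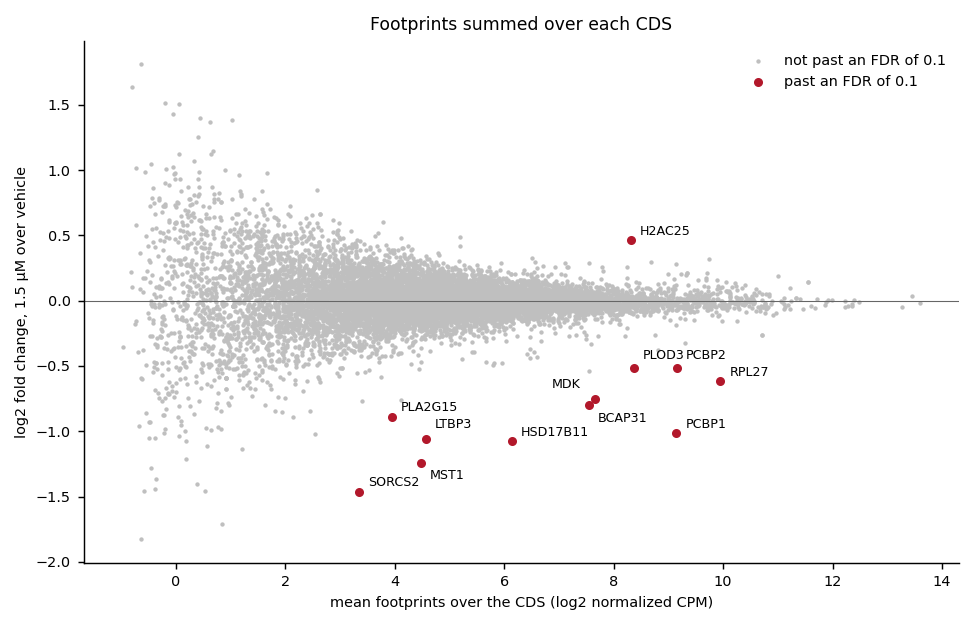
Log2 fold change of footprints over the CDS, 1.5 μM over vehicle (y axis), against the mean level (x axis, log2 normalized CPM), with 1 point per transcript. The 12 labelled red points passed an FDR of 0.1, and only H2AC25 (0.46) is above 0.

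The center of density is the mean position of a transcript's footprints as a share of the CDS length. Differences were taken between libraries with the same replicate number, and the Z-score is their mean, although no label says that such libraries share a batch. The center moved towards the start codon, with a Z-score beyond −3, on 22 transcripts (0.201% of 10924) and towards the stop codon on 3 (0.0275%). In RPL27 it was at 35.6% and 36.2% of the CDS at 1.5 μM against 54.4% and 54.1% in vehicle (Z-score −10.1). MDK moved to 47.8% and 44.8% from 65.1% and 65.0%, and EMC7 to 32.97% and 35.3% from 54.2% and 52.1%. PCBP2 (−6.68) and CD99 (−6.64) followed. Without the first 50 codons, 2 of the 22 (SUMF2 and H2BC11) stayed beyond −3 and 8 were above 0, and the Z-scores were −0.81 for RPL27, −0.026 for MDK, −1.25 for EMC7, −0.09 for PCBP2 and 0.335 for CD99. With replicate 4 alone 56 transcripts passed, and with replicate 5 alone 55.

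Of the 21 stall list genes, 13 were beyond −3 and 20 were below 0. The measure shares its libraries with Dmax, and 18 of the 22 transcripts were also among the 34 above. The other 4 were chosen for naming after that count was seen. TMED2, a cargo receptor of vesicles between the ER and Golgi, had 6.23 and 8.22 × CDS mean at codon 25 against 0.685 and 1.38, and its center moved to 49.3% and 50.2% from 55.2% and 54.2%. ERP29 (an ER chaperone), DDRGK1 (an ER-bound factor of the UFM1 modification) and the histone H2BC11 were the rest. TMED2 was short of the threshold with a minimum of 50 reads (Z-score −2.78), and DDRGK1 with replicate 5 alone (−2.62). The 3 that moved towards the stop codon were CHD3, a chromatin remodeler, and RAB5IF with its readthrough transcript TGIF2-RAB5IF, which share reads. With replicate 4 alone all 3 were under the threshold, with Z-scores of 2.89, 2.36 and 2.37 in that order. With replicate 5 alone they were at 3.13, 4.18 and 4.28.

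To see whether these changes had counterparts in mRNA, the change in footprints was set against that in mRNA-seq in 1 fit of the 8 libraries of the second study. This fit took the 8 as independent, although a ribo-seq and an mRNA-seq library came from each sample. Translational efficiency fell on 4 transcripts (0.0339% of 11799) by edgeR. PCBP1 had 583 and 584 CPM of mRNA at 1.5 μM and 526 and 544 in vehicle, and its efficiency fell by 1.14 on the log2 scale (SE 0.095, edgeR adjusted p = 0.00128). BCAP31 had 223 and 238 CPM of mRNA against 229 and 224, with a fall of 0.832 (edgeR adjusted p = 0.0294). MDK had 309 and 298 against 305 and 305, with a fall of 0.747, and SORCS2 had 31.6 and 26.2 against 27.1 and 23.9, with a fall of 1.65. The mRNA groups overlapped in MDK, BCAP31 and SORCS2, and both mRNA libraries at 1.5 μM were above both vehicle libraries in PCBP1.

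With 1 block for each sample, taken as the libraries of a group with the same number, the count was 13, all of them lower and including these 4. That fit was added after the data were seen. The call of PCBP1 held whichever of the 8 libraries was left out, whereas each of the other 3 was lost in most of those fits. The count was 128 without replicate 4 of the vehicle mRNA libraries, and 1 without either replicate of 1.5 μM or of vehicle in ribo-seq or either replicate of 1.5 μM in mRNA-seq. For reads after the Dmax codon, or after codon 50 for the other transcripts, the count was 15 (0.13%), a choice made after the data were seen. Those 15 held 13 of the 34 genes, and the other 2 were PLOD3 (−0.69) and IGF2BP2, an RNA-binding protein (−0.80).

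Over the same codons, mRNA of the 34 genes changed by between −0.285 and 0.236 on the log2 scale, with a median of 0.006. None passed an unadjusted p of 0.05 in edgeR, against 1.89% of all transcripts tested, and none passed after adjustment. The mRNA libraries held from 15227654 to 22036358 reads over CDS.

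**Figure D5:**
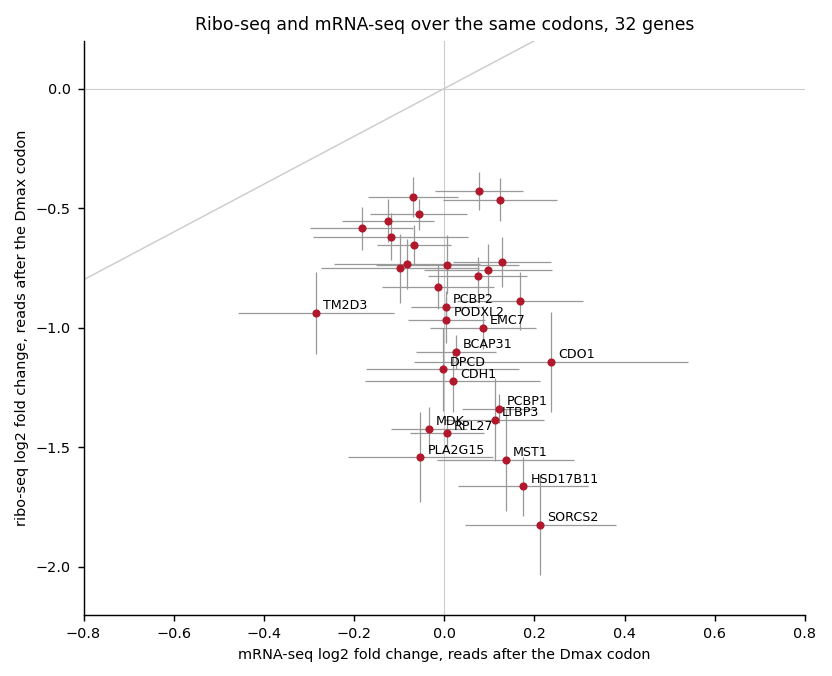
Log2 fold change after the Dmax codon in ribo-seq (y axis) against that in mRNA-seq over the same codons (x axis) for 32 called genes, with bars of 1 standard error and a grey line where the values are equal. The genes lie between −1.82 and −0.43 in ribo-seq and between −0.285 and 0.236 in mRNA-seq, all below the line.

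The change over the whole CDS was also set against that in the first study at the same dose and time, in 1 fit of 10 libraries with no library shared. The difference passed an FDR of 0.1 on 0 of 11355 transcripts (0%) in edgeR and on 0 in DESeq2, and 118 had an unadjusted edgeR p under 0.05. Over the stall list the differences ran from −0.54 for RPL27 to 0.45 for LTBP3, with a median of 0.12. RPL27 had the smallest unadjusted p, 0.0139 (edgeR adjusted p = 0.9999): its log2 fold change was −0.62 here and −0.07 in the first study. For PCBP1 the values were −1.01 here and −0.85 in the first study, and for BCAP31 −0.80 and −0.95. Without a test that passed, these values do not show that the studies gave like changes.

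Occupancy of the P site by codon type was compared over all 61 sense codons, leaving out the first 50 and last 20 codons of each CDS. By limma, 0 of 61 codons passed an FDR of 0.1 (0%), with 11 at an unadjusted p under 0.05 and a smallest adjusted p of 0.110. The log2 differences lay between −0.163 (TAT) and 0.134 (CCC). CTG, the codon that stood in the P site of 6 stall list windows, had a relative occupancy of 1.001 and 1.002 at 1.5 μM and 0.958 and 0.970 in vehicle. Without replicate 5 of 1.5 μM, 6 codons passed.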

How the data were processed

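Ribosome footprints and mRNA fragments of Huh7 cells were sequenced, and the deposited values are raw counts of reads per codon. According to the methods and the submitters' notes, the authors stripped adapters, discarded reads matching rRNA, used Bowtie 1.1.2 to align what remained to 1 isoform per expressed gene, chosen with kallisto 0.42.5, retained reads with at most 5 best sites, counted each site, and assigned a read to its P-site codon. DESeq is also named there. Labels set the groups.

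Counts were summed per CDS, or after a codon, and tested with edgeR 4.0.16 (filterByExpr, TMM factors, quasi-likelihood test, no block) in R 4.3.3, with Benjamini-Hochberg adjustment over all transcripts tested and an FDR of 0.1. The fit used the compared groups only. CPM are per 1000000 counted reads after TMM scaling, and each SD is over 2 libraries. SE and p-values come from the edgeR fit of the libraries compared, in which the estimate of spread is shared in part across transcripts. They measure the spread between these libraries only. Dmax and the center of density followed the authors' published scripts, with at least 10 reads (Dmax per pooled group, center per library) and bins of 300 transcripts. As in those scripts, a Z-score divides by the root mean square of its bin, whereas the methods text describes SDs from the bin mean, a form that put 393 rather than 271 transcripts at a Dmax Z-score of at least 2. Transcripts needed at least 100 reads per group in the first study and 50 per library in the second for the stall codon. Codon occupancy was tested with limma 3.58.1 (trend). DESeq2 1.42.0, other scaling, filters, thresholds and codons, the replicate block, a block per sample and each library left out were the alternatives. Shape measures used Python 3.11.15. Simulated data were used to test Dmax, the center of density, the choice of the stall codon and the fits of counts over the whole CDS, in efficiency and between studies. The test of reads after the Dmax codon, the windows around the stall codon, the motif counts and the codon occupancy were not tested in this way. Names and coordinates come from GENCODE 44 on GRCh38, which named 11270 transcripts, and 228 more were named from the study's own table. A CDS of the length in the files was found for 10081, and windows were read from those only. The members, gene lists and tests were chosen with earlier results of these data known.

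Named genes are the stall list, the genes past the FDR over the whole CDS, in translational efficiency and in the difference between studies, the 30 smallest p-values after Dmax, the 5 extremes at each end of the center of density, and 3 members with the highest CPM of each other list. Other genes named are liver cell markers, the pair at the Z-score threshold and those said to be chosen after their values were seen. Some genes are not reported here.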

Additional observations from a re-analysis of the deposited data

How the results depend on the processing

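Several counts of calls moved with the setting. Over the whole CDS, 13 calls became 129 (50 higher) with the replicate number as a block, 29 with codons after 50 only, and 10 to 129 with 1 library left out (129 without replicate 5 and 31 without replicate 4 of 1.5 μM). After the Dmax codon, 34 calls became 76 with the block and 30 to 62 with 1 library left out, 24 with a Z-score minimum of 3 and 28 at an FDR of 0.05. Translational efficiency gave 2 calls at an FDR of 0.05, 11 with DESeq2, 13 with the block, 13 with a block for each sample that gave both kinds of library, 15 after the Dmax codon, and 1 to 128 with 1 library left out. The difference from the first study gave 3 calls with the block and 0 in every fit that left out a library. The P-site occupancy gave 10 codons with the block and 0 to 6 with 1 library left out. The center of density gave 11 calls without the first 50 codons, where 20 of the 22 transcripts that had moved towards the start lost the call and CD99 turned to a Z-score of 0.335, and 55 to 56 with a single replicate number. The median rise at the stall codon was 1.55 per 1000000 CDS reads, 4.55 × CDS mean with 1 codon on each side, and 8.36 to 9.50 with 1 library left out (8.36 without replicate 5 of 1.5 μM). Ribo-seq libraries of the 2 groups with the same number deviated together from their group means, with a correlation of 0.319 over 9299 transcripts, which is a single value because 2 libraries deviate from their mean by equal amounts. With only 2 pairs and no label of a shared batch, the 2 groups share only a number, and the replicate block shows how the counts move, not a paired design. DESeq2 size factors in edgeR, the SD form of the Z-score and a minimum of 50 reads for the center of density left the counts of calls within 1.5 times. Genes near 0 turned in sign. Without the last 6 codons EDF1 and PHGDH were at −0.001. The efficiency of CDH1 was −1.24 over reads after its Dmax codon. With 1 library left out, the fold changes ran from −0.030 to 0.13 for ACTA2, −0.154 to 0.064 for APOB, −0.321 to 0.435 for CCN1, −0.087 to 0.244 for CCN2, −0.146 to 0.112 for EBP, −0.032 to 0.050 for EDF1, −0.369 to 0.063 for HMGCS1, −0.297 to 0.384 for KRT19, −0.022 to 0.026 for PHGDH, −0.073 to 0.006 for PSAT1, −0.066 to 0.053 for RPL4, −0.129 to 0.114 for SERPINA1, −0.069 to 0.024 for VCP, and −0.455 to 0.029 for the efficiency of SUMF1. The causes were not tested. With a library left out, the lone sample of its group was taken to vary as the other groups do. At the stall codons of MST1 and LTBP3 the peaks were of a few reads, and CCR1 had too few reads for its codon to be described.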

Other observations

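Other gene groups were compared by footprints over the whole CDS. There 0.115% of all 11263 transcripts passed the FDR in edgeR, so a count of 0 for a list of the sizes below stands at that share and is no result about its members. Of the immediate early genes, which respond within minutes to many stimuli, 14 were tested and none passed the FDR in edgeR. All 14 had log2 values above 0, with a median of 0.12 against 0.001 for all transcripts, and in 4 both libraries at 1.5 μM were above both vehicle libraries (15% of all transcripts tested). JUN had 153 and 155 CPM at 1.5 μM against 133 and 124 in vehicle (0.26, edgeR unadjusted p = 0.00389). CCN1 (0.11) and CCN2 (0.09) overlapped between groups, with 272 and 161 CPM against 239 and 161 for CCN1, and each was below 0 in a fit that left out 1 library. In the integrated stress response list, 0 of 17 genes passed, with a median of 0.021, and 10 of the 17 were above 0. Both libraries at 1.5 μM were above both vehicle libraries in 4 of the 17 (15% of all transcripts tested) and below both in 0. Of the better measured members, PSAT1 (−0.03) and PHGDH (0.002) were near 0 and SLC3A2 was at 0.11.

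Of the factors that sense or clear stalled ribosomes, 0 of 24 passed, with a median of −0.022. RACK1, a ribosomal scaffold protein, had 1178 and 1136 CPM against 1292 and 1279 (−0.15, edgeR unadjusted p = 0.0231), while VCP (−0.02) and EDF1 (0.01) lay closer to 0. Both libraries at 1.5 μM were below both vehicle libraries in 7 of the 24 (15.1% of all transcripts tested) and above in 3. For cholesterol synthesis and uptake the count was 0 of 25 with a median of −0.039, 21 of the 25 were below 0 (49.6% of all transcripts) with none apart from vehicle in both libraries, and HMGCS1 (−0.14) and EBP (−0.02) overlapped between groups. The ER chaperones gave 0 of 18, of which 5 were below vehicle without overlap and 2 above, with HSPA5 at −0.08, HSP90B1 at −0.10 and CALR at −0.06. ER targeting factors gave 0 of 33, of which 7 were below without overlap and 2 above, among them SEC61A1 (−0.03), SSR2 (−0.09) and SEC61G (−0.09), although EMC7 of that list was called after its Dmax codon. Plasma proteins of hepatocytes gave 0 of 18, of which 14 were below 0 and 2 below without overlap, with AFP at −0.05, APOB at −0.04 and SERPINA1 at −0.002.

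Of 47 proteins of the large ribosomal subunit, RPL27 was the 1 that was called, and the list median was −0.007. RPL4 was at −0.01. Of 30 small subunit proteins 0 were called, with a median of 0.003. Of the other liver cell markers 0 of 5 tested were called over the whole CDS, with ACTA2 at 0.05, KRT19 at 0.08 and LYZ at −0.27.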
